A study of Mus musculus with 7 samples.

Results

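Foxp1, Foxp2 and Foxp4 are the FOXP genes of the mouse other than Foxp3, and their RNA was followed in bulk skin tumours of the Ivl:BRAFV600E and Ivl:BRAFV600E-SOX2LSL models. These 3 genes were taken by name from the 55423 features of the count table, and all 3 were among the 24433 features that reached 5 reads in some tumour. They were selected on the difference in their CPM between these same 3 and 3 tumours, so their levels and fold changes are given below as a description, with no test.

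FOXP proteins are transcription factors of the forkhead family. They bind DNA through the forkhead domain, pair with themselves and with each other through a leucine zipper, and mostly repress their targets together with corepressors of the CtBP and NuRD families. Foxp1 is known for roles in lymphocytes, heart and hair follicle stem cells, Foxp2 for the circuits of speech and vocal learning and for lung and gut epithelium, and Foxp4 for lung and neural epithelium, while Foxp3 is the defining factor of regulatory T cells.

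All tumours were squamous cell carcinomas of the skin. In both models a tamoxifen-inducible Cre recombinase under the involucrin (Ivl) promoter switched on BRAFV600E in the IVL+ cells of the epidermis, which lie in its basal and suprabasal layers, and tamoxifen was put on the skin of mice aged 7 to 10 weeks by the labels, whereas the study's methods give a range that starts and ends later. The Ivl:BRAFV600E-SOX2LSL mice carried in addition a Rosa26 allele from which the same recombination releases SOX2 and eGFP, so BRAFV600E and tamoxifen were common to both groups and the SOX2 allele set them apart. The comparison asks which genes differ with SOX2 in tumours of the IVL+ population. RNA came from whole tumours at clinical endpoint, one mouse per library, and 3 tumours of each genotype were compared. Sex was mixed in both groups, with 2 females and 1 male among the Ivl:BRAFV600E mice and 1 female and 2 males among the Ivl:BRAFV600E-SOX2LSL mice. The Ivl:BRAFV600E-SOX2LSL tumours were all collected earlier after induction, so time since induction and genotype cannot be told apart. The labels do not give the body site of a tumour.

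The libraries held between 23565432 and 31152826 counts on genes. Levels are given as CPM, which are counts per 1 M after scaling of the libraries by TMM, and 3 counts in a library, taken as the floor, corresponded to 0.0839 to 0.143 CPM. Sox2 matched the genotype labels, with 0.716, 0.508 and 0.238 CPM in the Ivl:BRAFV600E tumours against 182, 155 and 158 CPM in the Ivl:BRAFV600E-SOX2LSL tumours. The keratinocyte genes Trp63 (261 to 321 CPM) and Krt5 (2371 to 3900.1 CPM) were abundant in all 6 tumours, as the tissue label requires. Tumour 1 of the Ivl:BRAFV600E-SOX2LSL group stood apart, with 425 CPM of Krt10 against 3994 to 36342 CPM in the other tumours and 106 CPM of Krt8 against at most 8.65 CPM. Of all genes tested, 954 had an adjusted p below 0.05 (edgeR quasi-likelihood test, Benjamini-Hochberg), which is 3.9%, and 6280 had an unadjusted p below 0.05. The 585 higher genes made 2.39% and the 369 lower genes 1.51% of those tested. In 34.2% of tested genes the ranges of the genotypes were separate, and the median log2 fold change over all genes was 0.04.

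The 3 genes are related in sequence, so their coding sequences, read from 1 GENCODE M21 transcript (GRCm38) per gene, were compared first to see whether a read could be given to the wrong member. The longest run of identical bases was 30 bases between Foxp2 and Foxp1, 20 between Foxp2 and Foxp4 and 21 between Foxp1 and Foxp4. A read of 150 coding bases, the length of 1 read of a pair, from one of these transcripts therefore carried mismatches to each of the others. How the authors' counting treated reads with several alignments is not stated.

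Foxp2 showed the widest gap of the members (ENSMUSG00000029563, chr6:14901349-15441977 on the plus strand, with 20 annotated transcripts, 11 of them coding). Its level was 20.5, 20.4 and 20.5 CPM in the Ivl:BRAFV600E tumours, from 601, 441 and 432 reads. In the Ivl:BRAFV600E-SOX2LSL tumours it was 0.280, 0.389 and 0.108 CPM, from 10, 12 and 3 reads. The groups were far apart: the Ivl:BRAFV600E tumours were nearly equal, and the third Ivl:BRAFV600E-SOX2LSL tumour was at the floor of 3 counts. The means were 20.5 ± 0.0825 and 0.259 ± 0.141 CPM (SD, n = 3), a 79.0-fold lower level with SOX2, and the log2 fold change was -6.26 with a standard error of 0.38. It ranked 32 from the lowest log2 fold change among the 24433 tested genes.

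The few reads of the Ivl:BRAFV600E-SOX2LSL tumours set how precisely this level is known. Exact Poisson intervals of 95%, which cover counting error only, ran from 0.134 to 0.515, from 0.201 to 0.679 and from 0.0223 to 0.317 CPM in tumours 1, 2 and 3. These intervals overlap, so no order among these 3 tumours was detectable at this depth. The Ivl:BRAFV600E tumours lay closer together (SD 0.0825 CPM) than counting error alone would place them (0.836 to 0.988 CPM), so their small SD is not an estimate of how much such tumours vary. No exon of Foxp2 overlaps an exon of another annotated gene. In bulk RNA, fewer Foxp2-expressing cells and less Foxp2 RNA per cell cannot be told apart.

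Foxp4 was the member with a higher level in the Ivl:BRAFV600E-SOX2LSL tumours (ENSMUSG00000023991, chr17:47867133-47924645 on the minus strand, with 8 annotated transcripts, 4 of them coding). Its level was 45.3, 48.9 and 45.3 CPM in the Ivl:BRAFV600E tumours and 65.8, 54.8 and 58.2 CPM in the Ivl:BRAFV600E-SOX2LSL tumours. The highest Ivl:BRAFV600E value lay below the lowest Ivl:BRAFV600E-SOX2LSL value, so the groups did not overlap, beside 34.2% of all genes. The means were 46.5 ± 2.06 and 59.6 ± 5.64 CPM (SD, n = 3), a 1.28-fold higher level, with a log2 fold change of 0.36 and a standard error of 0.12. It ranked 16086 from the lowest log2 fold change among the 24433 tested genes. The highest value came from tumour 1, the library that stood apart, and without it the log2 fold change was 0.28.

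Foxp1, a FOXP gene of broad expression in adult tissues, had overlapping levels (ENSMUSG00000030067, chr6:98925338-99522721 on the minus strand, with 31 annotated transcripts, 20 of them coding). The Ivl:BRAFV600E tumours had 88.2, 137 and 108 CPM. The Ivl:BRAFV600E-SOX2LSL tumours had 115, 96.7 and 96.5 CPM, all within the range of the other group. The means were 111 ± 24.4 and 103 ± 10.8 CPM (SD, n = 3), and the log2 fold change was -0.11 with a standard error of 0.18. Its sign rested on Ivl:BRAFV600E tumour 2, the highest of all, without which it was 0.07. Exons of Foxp1 share 435 bases with the annotated genes Gm20696 and Gm49348 on the same strand, out of 13751 exonic bases.

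**Figure D1:**
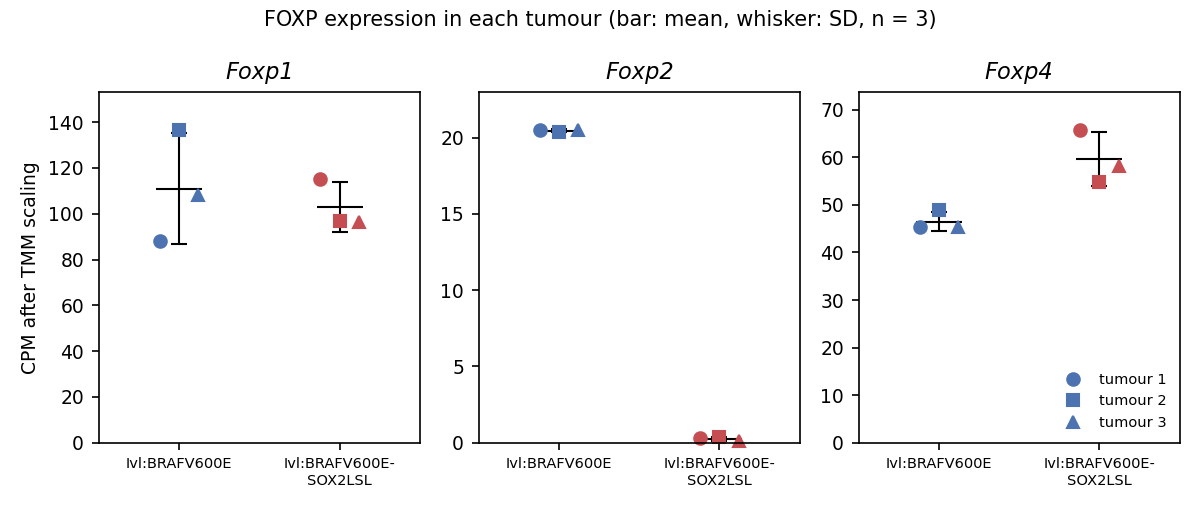
CPM after TMM scaling (linear axes from 0) of Foxp1, Foxp2 and Foxp4 in each of the 3 Ivl:BRAFV600E (blue) and 3 Ivl:BRAFV600E-SOX2LSL (red) tumours; the symbol shape gives the tumour number within a genotype, which pairs no samples, the horizontal bar is the mean and the whisker the SD. Foxp1 overlaps between genotypes, Foxp2 is near 20.5 CPM in one group and below 0.4 CPM in the other, and Foxp4 is higher in all Ivl:BRAFV600E-SOX2LSL tumours.

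Levels of different genes are comparable only per length, so the CPM of each member was divided by the length of its annotated exons (13.751 kb for Foxp1, 16.346 kb for Foxp2 and 4.926 kb for Foxp4). On this scale the Ivl:BRAFV600E tumours had 9.44 ± 0.417 CPM per kb of Foxp4, 8.07 ± 1.77 of Foxp1 and 1.25 ± 0.00505 of Foxp2 (SD, n = 3). Foxp2 was the lowest member in every tumour, whereas Foxp4 and Foxp1 did not differ beyond their spread in this group, and Foxp1 was just above Foxp4 in tumour 2 (9.94 and 9.92 CPM per kb). The Ivl:BRAFV600E-SOX2LSL tumours had 12.1 ± 1.15 CPM per kb of Foxp4, 7.48 ± 0.788 of Foxp1 and 0.0158 ± 0.00865 of Foxp2, and here Foxp4 lay above Foxp1 in all 3 tumours.

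Summed over the members, the length-scaled level was 16.9, 21.1 and 18.3 CPM per kb in the Ivl:BRAFV600E tumours and 21.8, 18.2 and 18.8 CPM per kb in the Ivl:BRAFV600E-SOX2LSL tumours, which overlap. The make-up of that sum differed. Foxp2 gave 5.90% to 7.44% of it in the Ivl:BRAFV600E tumours and 0.0352% to 0.131% in the Ivl:BRAFV600E-SOX2LSL tumours. Foxp4 gave 47.0% to 54.5% and 61.2% to 62.7%, and Foxp1 38.0% to 47.1% and 37.2% to 38.7%. These shares depend on the exon annotation, since transcripts that the tumours do not use lengthen a gene.

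The ratio of Foxp4 to Foxp1 reads within a library does not depend on the scaling between libraries. It was 0.514, 0.357 and 0.419 in the Ivl:BRAFV600E tumours and 0.571, 0.567 and 0.604 in the Ivl:BRAFV600E-SOX2LSL tumours, again without overlap. The ratio of Foxp2 to Foxp1 reads was 0.232, 0.149 and 0.190 against 0.00243, 0.00402 and 0.00112.

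**Figure D2:**
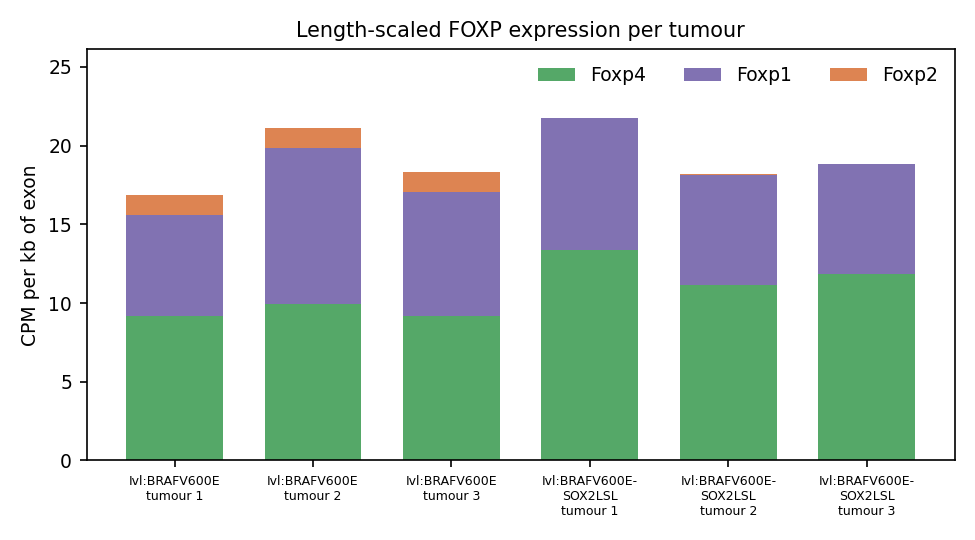
Stacked bars of Foxp4, Foxp1 and Foxp2 in CPM per kb of annotated exon (linear axis from 0), 1 bar for each of the 6 tumours and no error bars, since each bar is 1 library. The bars reach 16.9 to 21.1 in the Ivl:BRAFV600E tumours and 18.2 to 21.8 in the Ivl:BRAFV600E-SOX2LSL tumours, and the Foxp2 segment, 5.90% to 7.44% of an Ivl:BRAFV600E bar, is at most a thin line in the Ivl:BRAFV600E-SOX2LSL bars.

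Of the 41 other forkhead genes, 29 were tested, 1 fell, none rose (adjusted p below 0.05, edgeR with Benjamini-Hochberg), and the share called was 3.45%, near the 3.9% of all genes. Of the 29, 5 passed the read filter through the Ivl:BRAFV600E-SOX2LSL tumours alone and 1 through the Ivl:BRAFV600E tumours alone. The median log2 fold change of the other 23 was 0.09. In 8 of these 23 genes the groups did not overlap, 4 higher and 4 lower, a share near the 34.2% of all genes. Foxo3, a FOXO factor that acts downstream of PI3K-AKT signalling and promotes arrest and apoptosis, had 282, 272 and 245 CPM in the Ivl:BRAFV600E tumours and 146, 172 and 167 CPM in the Ivl:BRAFV600E-SOX2LSL tumours. Its log2 fold change was -0.72 (SE 0.13, edgeR Benjamini-Hochberg adjusted p = 0.036). With each tumour dropped in turn, it passed in 1 of 6 fits, with a log2 fold change of -0.78 to -0.65, and it did not pass with sex as a covariate, where the log2 fold change was -0.68. The most abundant genes that were not called were Foxn3, with a log2 fold change of 0.31 (SE 0.14), Foxk1 with 0.15 (SE 0.15) and Foxk2 with 0.04 (SE 0.13). Foxn3 is a checkpoint-associated repressor, and Foxk1 and Foxk2 regulate metabolism and autophagy.

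Foxp3, the remaining FOXP gene, was low in both groups. It had 0.614, 0.0924 and 1.05 CPM in the Ivl:BRAFV600E tumours and 0.671, 1.04 and 2.49 CPM in the Ivl:BRAFV600E-SOX2LSL tumours, and the groups overlapped. The log2 fold change was 1.25 (SE 0.80, edgeR Benjamini-Hochberg adjusted p = 0.36), and it was 0.54 without Ivl:BRAFV600E-SOX2LSL tumour 3, 0.75 without Ivl:BRAFV600E tumour 2 and 1.92 without Ivl:BRAFV600E tumour 3. None of the 8 T cell markers was called by edgeR, DESeq2 or limma (1 had an unadjusted p below 0.05 with edgeR), and their summed level was 10.5 to 14.0 CPM in the Ivl:BRAFV600E tumours and 8.59 to 16.7 CPM in the Ivl:BRAFV600E-SOX2LSL tumours. Cd5, with 9.69, 7.95 and 5.56 CPM against 2.18, 5.21 and 5.49 CPM, had a log2 fold change of -0.85, while the other 7 had 0.06 to 1.17.

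**Figure D3:**
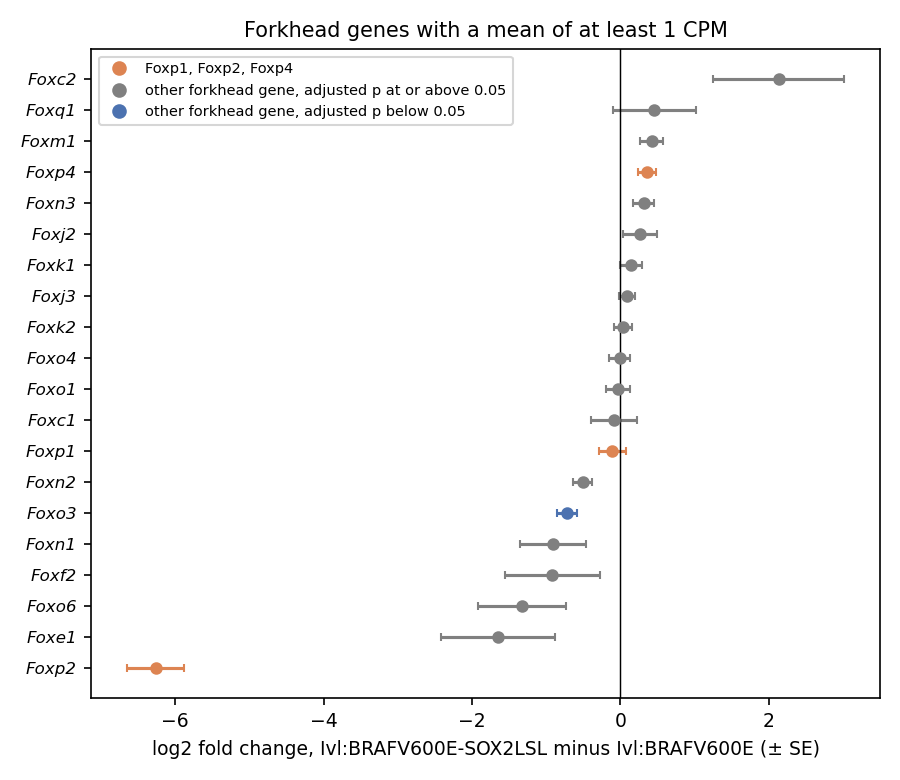
Log2 fold change (Ivl:BRAFV600E-SOX2LSL minus Ivl:BRAFV600E, points) with its standard error (bars) for forkhead genes with a mean of at least 1 CPM, from the edgeR fit over all genes on 3 tumours per group. Among the genes that are not members, for which alone the test is used, Foxo3 (-0.72) has an adjusted p below 0.05. Foxp2 is at -6.26, and Foxp1 (-0.11) and Foxp4 (0.36) lie among the remaining genes.

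FOXP proteins are reported to work with corepressors and with other transcription factors, and 24 of the 25 such partner genes were tested (Nkx2-1 was not). Of these, 2 rose and none fell, where 2.39% of all genes rose. Of the 24, 1 passed the read filter through the Ivl:BRAFV600E-SOX2LSL tumours alone. The median log2 fold change of the other 23 was 0.09 against 0.04 over all genes. Ctbp2, a corepressor that binds FOXP proteins, had 39.7, 39.1 and 38.4 CPM in the Ivl:BRAFV600E tumours and 77.4, 59.6 and 57.4 CPM in the Ivl:BRAFV600E-SOX2LSL tumours. Its log2 fold change was 0.73 (SE 0.15, edgeR Benjamini-Hochberg adjusted p = 0.044). Sox5, a SOXD transcription factor, had 0.921, 0.739 and 1.19 CPM against 5.43, 2.56 and 4.48 CPM. Its log2 fold change was 2.13 (SE 0.37, edgeR Benjamini-Hochberg adjusted p = 0.032). Among the most abundant partners that were not called, the NuRD subunits Chd4 and Gatad2a had log2 fold changes of 0.06 (SE 0.12) and -0.29 (SE 0.12). In 10 of the 23 partners that reached the read filter in both groups, the groups did not overlap, 8 of them higher with SOX2, beside 34.2% of all genes.

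Of 17 genes reported as FOXP targets in brain, lung, hair follicle or lymphocytes, 15 were tested (Agr2 and Sftpc were not), 2 rose and none fell, where 2.39% of all genes rose. Of the 15, 3 passed the read filter through the Ivl:BRAFV600E-SOX2LSL tumours alone. The median log2 fold change of the other 12 was 1.08 against 0.04 over all genes. In 4 of these 12 genes the groups did not overlap, all higher, a share near the 34.2% of all genes. A link between these genes and the members was not tested. Met, the receptor of hepatocyte growth factor, had 34.7, 25.3 and 31.0 CPM in the Ivl:BRAFV600E tumours and 127, 66.0 and 68.7 CPM in the Ivl:BRAFV600E-SOX2LSL tumours. Its log2 fold change was 1.52 (SE 0.28, edgeR Benjamini-Hochberg adjusted p = 0.036). Pdpn, the membrane glycoprotein podoplanin, had 10.2, 5.31 and 12.2 CPM against 53.2, 31.0 and 26.7 CPM. Its log2 fold change was 2.00 (SE 0.38, edgeR Benjamini-Hochberg adjusted p = 0.039). Robo1, a receptor of SLIT proteins, had a log2 fold change of 0.48 (SE 0.22), the reelin receptor Vldlr -0.52 (SE 0.36) and the urokinase receptor Plaur 1.66 (SE 0.64). None of these passed the edgeR test, while Plaur passed in an alternative fit to all tumours. Plaur was 0.90 without Ivl:BRAFV600E-SOX2LSL tumour 1 and 2.46 without Ivl:BRAFV600E tumour 2. The 4 calls among partners and targets were mostly lost with fewer tumours, where the calls over all genes went from 954 to between 22 and 412, or to 1575 without Ivl:BRAFV600E-SOX2LSL tumour 1. With each tumour dropped in turn, Ctbp2, Met and Pdpn passed in 1 of 6 fits, the one without Ivl:BRAFV600E-SOX2LSL tumour 1, and Sox5 passed in 2. Their log2 fold changes in those fits stayed at 0.58 to 0.81 for Ctbp2, 1.15 to 1.69 for Met, 1.64 to 2.25 for Pdpn and 1.88 to 2.38 for Sox5. None of the 4 passed with sex as a covariate, where 228 genes were called in all and their log2 fold changes were 0.69 for Ctbp2, 1.41 for Met, 1.78 for Pdpn and 2.09 for Sox5.

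Genes around each member on the chromosome were examined within 500 kb of it. Around Foxp2, 5 genes passed the read filter, and the nearest was Ppp1r3a. Ppp1r3a encodes the glycogen-targeting subunit of protein phosphatase 1 in skeletal muscle and lies 146 kb from Foxp2. It had 0 reads in the 3 Ivl:BRAFV600E tumours and 9.79, 6.41 and 1.23 CPM in the Ivl:BRAFV600E-SOX2LSL tumours, at least 45.5-fold higher against the mean floor of 3 counts per library. It passed the filter through the Ivl:BRAFV600E-SOX2LSL tumours alone, so no test is given. On the other side, 279 kb away, the transcriptional regulator Mdfic had 38.4, 37.1 and 32.1 CPM against 24.6, 19.9 and 16.9 CPM. The Mdfic groups did not overlap, and its log2 fold change of -0.81 (SE 0.17) did not pass the test (edgeR Benjamini-Hochberg adjusted p = 0.051). It passed with DESeq2, limma-voom, upper-quartile scaling, no filter, filterByExpr and without Ivl:BRAFV600E-SOX2LSL tumour 1, and its log2 fold change over all alternatives was -0.96 to -0.69.

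Around Foxp4, 31 genes passed the read filter. Ccnd3, which encodes the G1 cyclin D3 and lies 267 kb away, rose, where 2.39% of all genes rose. It had 24.9, 26.6 and 25.7 CPM in the Ivl:BRAFV600E tumours and 36.1, 42.7 and 40.1 CPM in the Ivl:BRAFV600E-SOX2LSL tumours. Its log2 fold change was 0.63 (SE 0.12, edgeR Benjamini-Hochberg adjusted p = 0.043). It passed in 1 of 6 fits with a tumour dropped, and neither under upper-quartile scaling nor with sex as a covariate, while its log2 fold change was 0.57 to 0.69, 0.53 and 0.63 in these fits. The end of Ccnd3 overlaps that of Bysl on the opposite strand, and no source used here says whether counting used the strand. Apobec2, a muscle gene 495 kb away, had 0, 0.0924 and 0.190 CPM against 8.06, 2.01 and 1.30 CPM. It too passed the filter through the Ivl:BRAFV600E-SOX2LSL tumours alone, and no test is given. The lowest log2 fold change near Foxp4 among genes with at least 1 CPM was -0.88 (SE 0.49) for the pseudogene Gm5814, whose groups overlapped. The nearest neighbours of Foxp4 with at least 1 CPM, the myogenic regulator inhibitor Mdfi at 32.4 kb and the lysosomal transcription factor Tfeb at 74.7 kb, had log2 fold changes of -0.15 (SE 0.15) and 0.03 (SE 0.18), with overlapping groups. Around Foxp1, 8 genes were tested and edgeR called none, with 2 at an unadjusted p below 0.05, while DESeq2 called 1, Gm20696, and limma none. The 4 of them with a mean of at least 1 CPM ran from a log2 fold change of -1.32 (SE 0.40) for Gm20696, which shares exons with Foxp1, to 0.27 (SE 0.16) for the translation factor gene Eif4e3.

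Positional genes were set beside the members because the body site of each tumour is not in the labels. Hox genes keep in adult skin a pattern of expression that differs between body regions, and Krt9 is the keratin of palm and sole epidermis. Of 20 such genes, 19 passed the read filter, 8 of them through the Ivl:BRAFV600E tumours alone, and for these 8 no test is given. Of the other 11, 1 fell and none rose, where 1.51% of all genes fell and 2.39% rose. Hoxc13, the gene that fell, had 16.7, 11.7 and 16.3 CPM in the Ivl:BRAFV600E tumours and 1.09, 2.56 and 2.49 CPM in the Ivl:BRAFV600E-SOX2LSL tumours. The Hoxc13 log2 fold change was -2.86 (SE 0.36, edgeR Benjamini-Hochberg adjusted p = 0.017), and with each tumour dropped in turn it ran from -3.06 to -2.56 and passed in 3 of 6 fits. In 5 of the 11 genes the tumours of the genotypes had separate ranges, 3 lower and 2 higher with SOX2, beside 34.2% of all genes. The lower ones were Hoxc13, En1 and Hoxc9. En1 had 14.0, 47.0 and 14.1 CPM against 3.53, 0.583 and 0.325 CPM. Hoxc9 had 4.60, 4.62 and 4.23 CPM against 0.923, 0 and 0 CPM. The log2 fold changes of En1 and Hoxc9 were -4.05 (SE 0.96) and -3.78 (SE 1.24), and neither passed the edgeR test. The higher ones were the hindlimb factor Pitx1, with 25.6, 29.8 and 31.4 CPM against 43.7, 32.4 and 41.9 CPM, and Hoxd10, with 0.273, 0.139 and 0.285 CPM against 0.448, 0.389 and 0.470 CPM.

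Among the 8 genes without a test, Hoxc11 had 19.3, 27.3 and 21.1 CPM in the Ivl:BRAFV600E tumours and 0 reads in each Ivl:BRAFV600E-SOX2LSL tumour, at least 234-fold lower. Hoxc10 had 12.2, 13.9 and 10.1 CPM against 0.0280, 0 and 0 CPM. Hoxc12 had 2.66, 2.82 and 3.99 CPM against 0 reads in each, at least 32.7-fold lower. These Hox genes passed the filter through the Ivl:BRAFV600E tumours alone, and Foxp2 was selected on this contrast. Their shared low level in the other group follows from that choice and is not read as a likeness. Krt9 had 13.6, 390 and 378 CPM against 0.0280, 0.0972 and 0.0361 CPM, so its Ivl:BRAFV600E tumours were not alike. The part of body site in the Foxp2 levels was not tested.

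**Figure D4:**
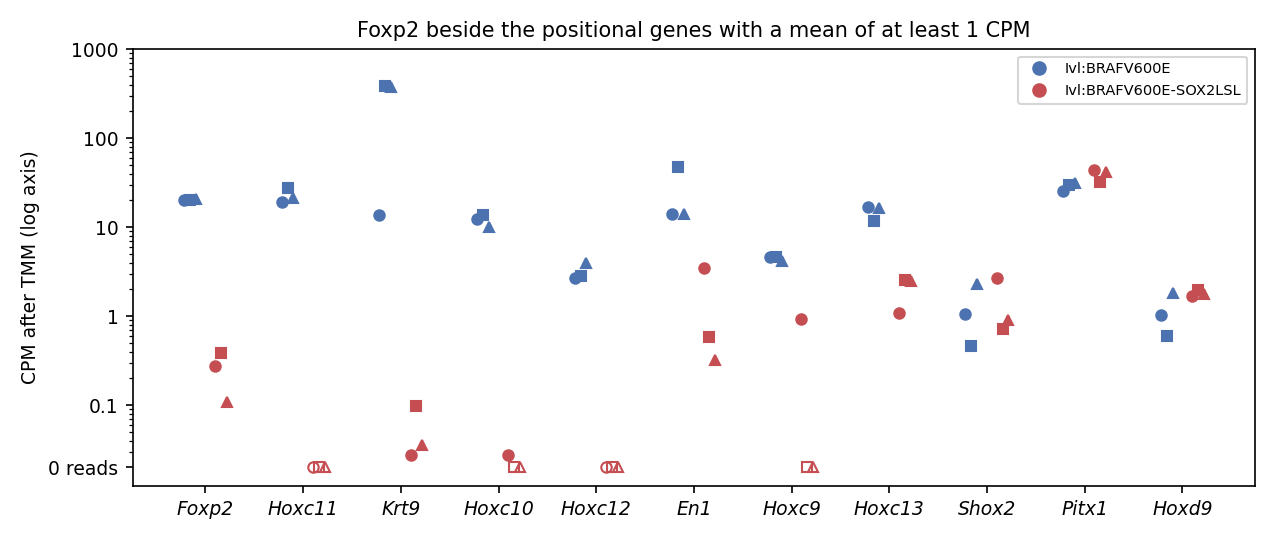
CPM after TMM scaling on a log axis, with 0 reads drawn as open symbols on a line of their own, for Foxp2 and the 10 positional genes with a mean of at least 1 CPM, 1 point per tumour (blue Ivl:BRAFV600E, red Ivl:BRAFV600E-SOX2LSL; shape gives the tumour number). Hoxc10, Hoxc11 and Hoxc12 are at or near 0 in the Ivl:BRAFV600E-SOX2LSL tumours, the groups overlap for Shox2 and Hoxd9, Pitx1 is higher with SOX2, and Krt9 is lower in Ivl:BRAFV600E tumour 1 (13.6 CPM) than in the other two.

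Marker genes of other cell types were set beside the members as well. Of 12 skeletal muscle genes, 5 passed the read filter through the Ivl:BRAFV600E-SOX2LSL tumours alone. The other 7 rose, where 2.39% of all genes rose. The summed level of the 12 was 1.98 to 4.23 CPM in the Ivl:BRAFV600E tumours and 210 to 987 CPM in the Ivl:BRAFV600E-SOX2LSL tumours. Of 6 macrophage genes 1, Csf1r, rose, again beside the 2.39% of all genes that rose. The Csf1r log2 fold change was 1.98, or 1.44 to 2.30 with a tumour dropped, where it passed in 1 of 6 fits. The summed level of the macrophage genes was 50.7 to 99.0 CPM against 413, 171 and 136 CPM in tumours 1, 2 and 3. Of a Merkel cell list 4 genes passed the read filter, 2 of them (Krt20 and Isl1) through the Ivl:BRAFV600E-SOX2LSL tumours alone, and the other two were not called. The list had a summed level of 0.416 to 3.18 against 262, 15.9 and 19.9 CPM in tumours 1, 2 and 3, and Atoh1, which defines that cell type, was not among the genes tested. None of 6 keratinocyte genes was called by edgeR (2 had an unadjusted p below 0.05, DESeq2 called 2 and limma 1), and their summed level was 77530 to 116010 CPM against 10687, 41262 and 39260.1 CPM in tumours 1, 2 and 3, of which tumour 1 is the library that stood apart. The members of that list ran in both directions, with log2 fold changes of -3.06 for Krt10, -2.24 for Krt1, -0.65 for Krt14, -0.64 for Ivl, 0.10 for Trp63 and 0.29 for Krt5. For neurons, a tissue where Foxp2 is known to be expressed, the defining markers Snap25, Syt1 and Elavl4 did not pass the read filter, and Rbfox3 was at most 0.140 CPM in any tumour. Tubb3, the other neuron gene tested, had 75.3 to 94.0 CPM in the Ivl:BRAFV600E tumours and 15.2 to 96.7 CPM in the Ivl:BRAFV600E-SOX2LSL tumours. The endothelial, fibroblast, adipocyte, melanocyte, Schwann cell, hair follicle and B cell lists, 37 tested genes together, had no gene called by edgeR (8 had an unadjusted p below 0.05, DESeq2 called 4 and limma 2), and in each of these lists the summed levels of the groups overlapped. The fibroblast list had a median log2 fold change of 1.08 and a summed level of 726 to 5028 CPM against 3891 to 8177 CPM, and its gene Pdgfra had 20.5, 18.1 and 46.3 CPM against 116, 65.4 and 55.1 CPM. The adipocyte genes Adipoq, Cidec and Plin1 had 4.20, 8.14 and 8.37 CPM in Ivl:BRAFV600E-SOX2LSL tumour 1 and at most 0.285 CPM in any other tumour. The part of these differences in the levels of Foxp2, Foxp4 and the reported partner and target genes was not tested.

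The genes whose log2 CPM followed each member most closely were ranked by Pearson's r over the 6 tumours, among 14429 genes with a mean of at least 1 CPM. For Foxp2 they included 4732416N19Rik (r = 0.999), Lap3 (0.995), Def8 (0.995) and Glce (0.994). Their log2 fold changes lay between -1.35 and -0.45, much smaller than that of Foxp2. For Foxp4 they were Entpd3 (0.999), the mechanosensitive channel Piezo2 (0.998), Trdmt1 (0.998), Relt (0.997) and the histone methyltransferase Ehmt2 (0.996), with log2 fold changes from 0.52 to 1.85. For Foxp1 they were Zfp566 (0.979), Isg20 (0.966), Gm8451 (0.962), Zrsr2 (0.961) and Gm10093 (0.960), with log2 fold changes from -0.16 to -0.02. Between members, r was -0.897 for Foxp2 and Foxp4, 0.234 for Foxp1 and Foxp2 and 0.097 for Foxp1 and Foxp4. These values describe the same 6 libraries, which fall into 2 genotypes, so any gene that differs between the groups with little spread ranks high beside Foxp2.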

How the data were processed

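Bulk tumour RNA was sequenced after ribosomal RNA depletion as paired 150-base reads. Per the labels and the methods, the authors checked reads with FastQC 0.11.8, trimmed them with TrimGalore, used HISAT2 2.1.0 to align them to GRCm38 and counted them per gene with featureCounts (Subread 1.6.3); they deposited raw read counts without normalisation. The treatment of strand and of reads with several alignments in counting is not stated. The methods name ComBat-seq for batch correction, and the study describes the tumours of these 2 genotypes as a single sequencing batch.

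The count table has 7 columns named by mouse. Of these, 6 were assigned to a genotype from the genotypes listed for the mice in the source data, and 1 column, which matched no listed mouse, was not used. It carries the prefix of the Ivl:BRAFV600E-SOX2LSL columns, yet by the group sizes of the labels it would be an Ivl:BRAFV600E tumour, so the genotype of that column is unclear. The labels hold 4 Ivl:BRAFV600E and 3 Ivl:BRAFV600E-SOX2LSL tumours, so 1 tumour of the labels was not analysed here. Tumour numbers follow column order and pair no samples.

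Genes that reached 5 reads in some tumour were scaled by TMM and compared with edgeR 4.0.16 (R 4.3.3; quasi-likelihood test, Benjamini-Hochberg at 0.05, genotype only). Standard errors were the fold change divided by the root of the F statistic, and log2 CPM used a prior count of 2. Levels per length used the union of annotated exons in GENCODE M21. Coding sequences came from its transcripts and were compared only. Some results under the rule for named genes and the compared sequences themselves are not reported here. The fit was also run on simulated data, and the outcome is not reported here. Python 3.11.15, pandas 2.3.3, scipy 1.17.1 and matplotlib 3.10.9 were used for tables and figures.

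The members, the gene lists and the rule for named genes were chosen with earlier results of these data known. Named were the members; from the forkhead, partner and target lists each called gene and the 3 most abundant not called; Foxp3; the 4 called positional genes of largest change; neighbours within 500 kb with a mean of at least 1 CPM, of which the text gives those called, the nearest and the extremes; the 5 genes of highest correlation per member; and Sox2. Hoxc13, En1, Hoxc9, Hoxd9, Hoxd10, Shox2, Pdgfra, Adipoq, Cidec, Plin1, Isl1, Pitx1, Krt14, Ivl, Cd5, Krt1, Krt10, Krt8, Krt5, Trp63, Csf1r, Krt20, Rbfox3 and Tubb3 were named after their values were seen. Alternatives were DESeq2 1.42.0, limma 3.58.1 (voom with sample weights), DESeq2 size factors, upper-quartile scaling, no filter, filterByExpr, sex as covariate, each tumour left out in turn, a prior count of 0.5 and, added after seeing the data, removal of the 10 genes of most counts and group means with a prior count of 2.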

Additional observations from a re-analysis of the deposited data

How the results depend on the processing

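For the members, every alternative kept the direction of Foxp2 (log2 fold change -6.64 to -5.92) and Foxp4 (0.26 to 0.41), while Foxp1 ran from -0.25 to 0.07 and changed sign without Ivl:BRAFV600E tumour 2. The counts of called genes depended on the fit. Over all genes they were 3653 with DESeq2, 2142 with limma-voom, 1759 without a filter on low counts and 228 with sex as a covariate, against 954. Leaving out 1 tumour gave 22, 50 and 179 without Ivl:BRAFV600E tumours 1, 2 and 3, and 1575, 202 and 412 without Ivl:BRAFV600E-SOX2LSL tumours 1, 2 and 3. With DESeq2 and with sex as a covariate the called genes were 3 and 0 of the other forkhead genes, 4 and 0 of the partners and 6 and 0 of the targets. Leaving out 1 tumour gave 0 to 1 other forkhead genes, 0 to 2 partners, 0 to 3 targets and 2 to 9 positional genes, against 6 with all tumours, of which 5 passed the read filter through the Ivl:BRAFV600E tumours alone, so that the positional counts are not read as a result. Under upper-quartile scaling, which moved the median of all genes to -0.06, uncalled genes near 0 changed sign: Chd4 to -0.035, Foxk2 to -0.059, Gpr27 to -0.023 and Tfeb to -0.069. With 1 tumour left out, Foxk2 ran from -0.053 to 0.11, Gpr27 from -0.084 to 0.25, Tfeb from -0.061 to 0.14 and Vldlr from -0.75 to 0.0012. The cause of these changes was not tested. Of 692 alternative values, 584 were labelled as unchanged. For single genes this meant the same direction and side of the threshold, and for the members a change within the spread. For counts of called genes it meant staying within a set ratio of the main count. No paired analysis was possible because the columns carry no replicate numbers. Depth limits the Foxp2 level with SOX2, and 3 tumours per group limit the rest.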
